A study of Mus musculus with 3 samples.

Results

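The transcripts described here encode cyclin B1, the CDK-binding proteins Cks1b and Cks2, and Cdc27, a subunit of the anaphase-promoting complex (APC/C), in mouse metaphase II oocytes. They were chosen by symbol, as all rows of the deposited table named Ccnb1, Cks1b, Cks2 or Cdc27, which gave 5 transcripts of 4 genes out of 9126 transcripts of 6104 gene symbols. RNA came from 3 pools of ICR oocytes, each of 20 oocytes from 4 mice, taken from the follicles as immature oocytes and cultured in M16 for 16 to 18 h until metaphase II. The titles name the pools young, aged and aged-sec; the aged-sec oocytes were matured in M16 mixed 1:1 with hUC-MSC-sec, a secretome (released factors) from mesenchymal stem cells of the human umbilical cord. The ages of the mice are not stated in the labels, and the treatment field names the secretome for all 3 pools, so the groups rest on the titles. With 1 library per group no difference below has a replicate check or a p-value, and each compares libraries rather than conditions.

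Cyclin B1 binds the kinase CDK1 to form maturation-promoting factor, whose activity holds the egg in metaphase II. Cks1 and Cks2 are small proteins that bind CDK1 and tether the kinase to substrates that are already phosphorylated, and Cks2 is known to be needed in mouse germ cells for the first meiotic division. At fertilization the APC/C marks cyclin B1 and securin for destruction and so ends the arrest, and Cdc27 (also called APC3) is the subunit on which its activators Cdc20 and Cdh1 dock. The full-grown oocyte makes little new RNA, and it controls the translation of stored mRNAs, cyclin B1 among them, through elements near the 3′ end that direct lengthening of the poly(A) tail.

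The ends of the annotated mRNAs are shown because oligo(dT)-primed cDNA, the SMART-Seq2 method used here, starts from the poly(A) tail. The 4 sequences come from the GENCODE M21 transcripts (GRCm38) paired with the curated RefSeq accessions of the table, and each lies in the 3′ UTR. GENCODE pairs the Cdc27 transcript with a second curated accession as well. Capitals mark the cytoplasmic polyadenylation element, searched as TTTTAT or TTTTAAT on the mRNA strand in the last 150 bases, and the polyadenylation signal, searched as AATAAA or ATTAAA.
Ccnb1, minus strand, 156 to 127 bases before the end: tctcatttgctgTTTTAATttatacatctg
Cks1b, minus strand, 37 to 8 bases before the end: acaagccttgATTAAAggaagttTTTTATa
Cks2, plus strand, 52 to 23 bases before the end: gTTTTATtttacctgttttgttaAATAAAg
Cdc27, minus strand, 33 to 4 bases before the end: atggaaaatccaAATAAAttacttttgaaa
In the searched 150 bases Cks1b held the element 2 times, starting 64 and 14 bases before the end. Cks2 held it 1 time, 51 bases before the end and upstream of its signal at 29 bases. Ccnb1 held it 1 time, 144 bases before the end, upstream of the first of 2 AATAAA signals at 115 and 24 bases. Cdc27 held 0 of these elements in this window. Among 58695 protein-coding GENCODE transcripts of at least 150 bases, 16.6% held the element there, and 22.5% of the 29514 with a polyadenylation signal in the last 50 bases. A match is a string of letters and not a site shown to be used.

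The table lists TPM, abundances scaled for transcript length to a sum of 1000000 over the whole library, for rows whose aged over young ratio was at least 1.2. That every member stood higher in aged than in young oocytes was therefore fixed by the listing and is described without being read as a result. A value that is high by chance in aged, or low by chance in young, helps a row into such a list, which lowers the aged-sec over aged ratio of listed rows, and raises that of aged-sec over young, without any effect. Listed rows held 22.9% (young), 32.5% (aged) and 32.1% (aged-sec) of the TPM. Sequencing depth is unknown from TPM, and because TPM are shares, fewer mRNA copies per oocyte and more of other mRNAs cannot be told apart. Of 12 oocyte markers 3 were listed (Bmp15, Gdf9 and Zp2, with a sum of 610 in young, 863 in aged, 824 TPM in aged-sec). Of 12 cumulus and granulosa cell markers 3 were listed (Kitl, Hsd3b1 and Fshr), summing to 1.24, 3.56 and 2.67 TPM, and of 7 blood and immune markers 0. Their part in the values below was not tested.

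The 3 transcripts of the kinase side were among the most abundant of the table, while the APC/C subunit stood far below them. Together Ccnb1, Cks1b and Cks2 made up 1.30% (young), 1.58% (aged) and 1.79% (aged-sec) of the TPM of the whole library. Among the 9126 listed transcripts Cks2 ranked 5 in all 3 libraries, Cks1b 9, 10 and 11, and Ccnb1 24, 25 and 25, in the order young, aged and aged-sec. The curated Cdc27 transcript ranked 790, 845 and 2155 in the same order. Within each library the order of the levels was Cks2, Cks1b, Ccnb1, then Cdc27.

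**Figure D1:**
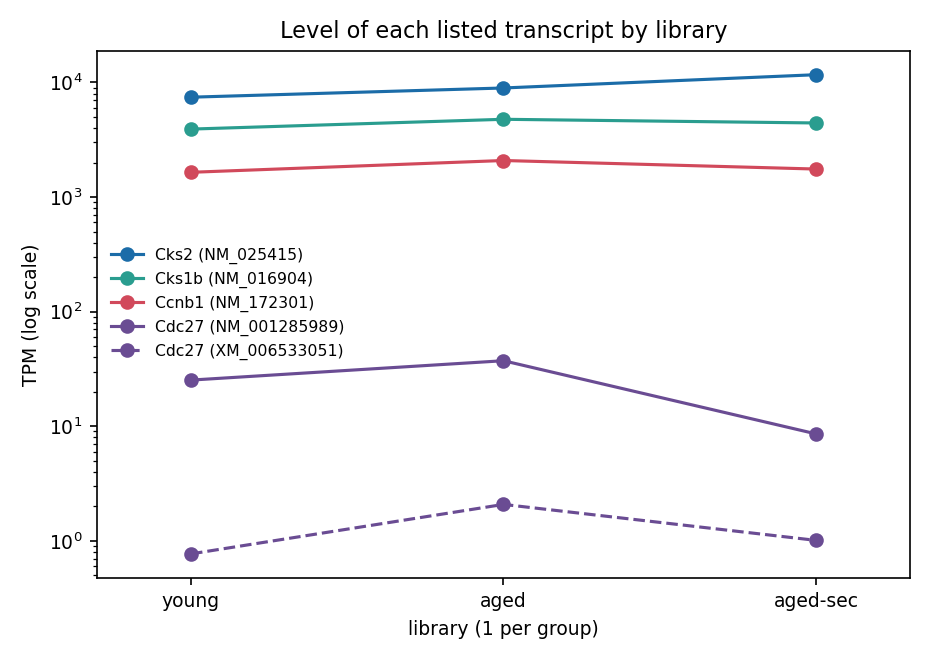
TPM (log scale) of the 5 listed transcripts in the young, aged and aged-sec libraries, 1 library each, with the predicted Cdc27 variant dashed; lines only join values of a transcript. The aged-sec point is the highest of the 3 for Cks2 and the lowest of the 3 for the curated Cdc27 transcript, at 8.58 TPM.

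Cyclin B1 mRNA, which encodes the regulatory partner of CDK1, lay nearer to its young than to its aged level in the aged-sec library, as deposited. Ccnb1 (NM_172301) stood at 1643 (young), 2083 (aged) and 1754 TPM (aged-sec). The aged value was 1.27 times the young one and the aged-sec value 0.84 times the aged one, which left aged-sec at 1.07 times young. On the log2 scale with 0.5 TPM added to each value, these differences were 0.34, −0.25 and 0.09. All 3 have the other sign when the listed transcripts are scaled by the median of ratios (−0.45, 0.043 and −0.41) or to equal upper quartiles (−0.44, 0.0027 and −0.44). Both scalings use listed rows only, which were chosen for a high aged over young ratio. The median of ratios moves every row alike, by −0.79, 0.29 and −0.50 before the pseudocount. Each Ccnb1 difference is smaller than its shift, so the changes of sign were fixed by the shifts. Of the 40 transcripts with at least 1000 TPM in aged oocytes, 5 including Ccnb1 had an aged-sec over aged ratio as low as this or lower, and the median of the 40 was 1.02.

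Both Cks mRNAs entered the table near its limit, and as deposited Cks2 was higher, and Cks1b slightly lower, in the aged-sec than in the aged library. Cks1b (NM_016904), whose protein also serves as a cofactor of the SCF-Skp2 ubiquitin ligase, stood at 3915 (young), 4767 (aged) and 4428 TPM (aged-sec). Its ratio was 1.22 for aged over young, 0.93 for aged-sec over aged and 1.13 for aged-sec over young. Like Ccnb1, it lay between young and aged in the aged-sec library as deposited. Under the median of ratios its log2 difference of −0.11 between aged-sec and aged became 0.18, and that of 0.18 between aged-sec and young became −0.32. Both changes of sign follow from the same shifts.

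Cks2 (NM_025415), the paralog needed in meiosis, stood at 7430 (young), 8942 (aged) and 11674 TPM (aged-sec). The aged value was 1.203 times the young one, just inside the limit of the listing. The aged-sec library held the highest value, 1.31 times aged and 1.57 times young, or 0.38 and 0.65 as log2 differences. As deposited, the Cks2 value with secretome was thus farther from young than the aged one, where Ccnb1 and Cks1b lay between young and aged. Under the median of ratios Cks2 in aged was below young (−0.53) and Cks2 in aged-sec above it (0.15), so that this order depends on the scaling. The shift of −0.79 turns aged over young negative for any row listed near the limit, so this change is not read as a result. Among the 40 transcripts with at least 1000 TPM, 2 including Cks2 had an aged-sec over aged ratio this high or higher, and the range was 0.72 to 1.41. The difference from aged became 0.68 under the median of ratios and 0.64 under upper-quartile scaling, and that from young 0.15 and 0.12. Both scalings add to every aged-sec over aged difference, so that from aged could only rise. The other alternative settings could not change these differences, or hardly so at this level, and are no check on them.

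**Figure D2:**
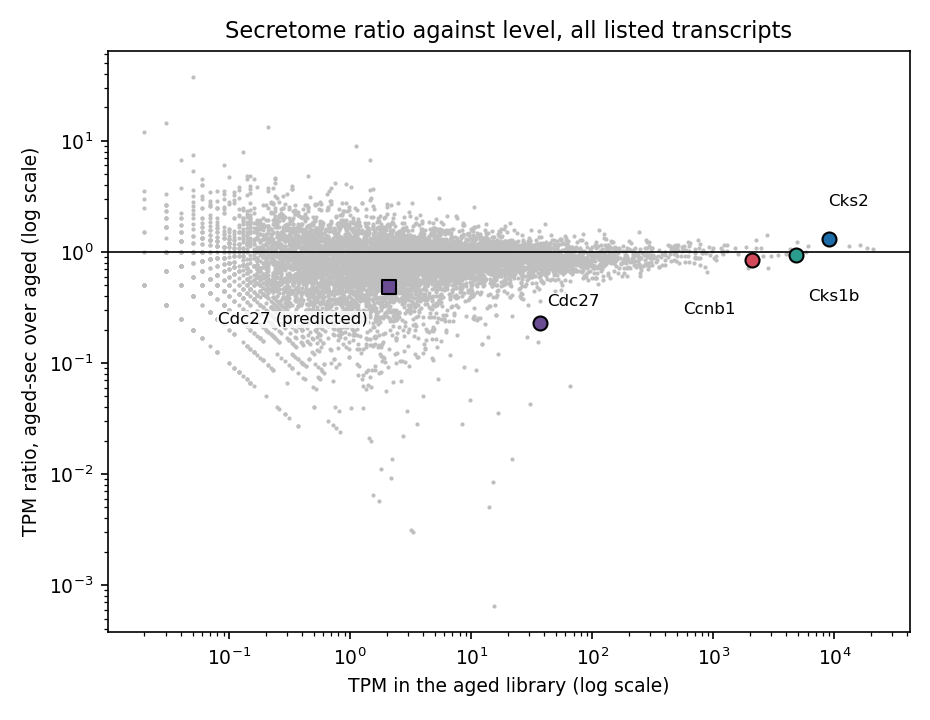
Each grey point is 1 of 9126 listed transcripts, with TPM in the aged library on the x axis and the aged-sec over aged ratio of TPM on the y axis, both on log scales; the line marks a ratio of 1, circles are curated members and the square is the predicted Cdc27 variant. Grey points spread less at high TPM, where Cks2 lies near the upper edge at 1.31, and Cdc27 lies below most transcripts of its level at 0.23.

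Ratios between members within a library do not depend on how libraries are scaled to each other. Cks2 over Cks1b was 1.90 (young), 1.88 (aged) and 2.64 (aged-sec). It dropped by 1.17% from young to aged, and the aged-sec ratio was 40.6% above aged. Cks2 over Ccnb1 was 4.52, 4.29 and 6.65 in the same order, while Cks1b over Ccnb1 was 2.38, 2.29 and 2.52. The sum of both Cks transcripts over Ccnb1 was 6.90, 6.58 and 9.18. Among these 3 transcripts, the ratios with Cks2 changed more between aged and aged-sec than that of Cks1b over Ccnb1, and there is no replicate to set them against. Ccnb1 over the curated Cdc27 transcript changed more than any of them, from 65.0 (young) and 55.8 (aged) to 204 (aged-sec).

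**Figure D3:**
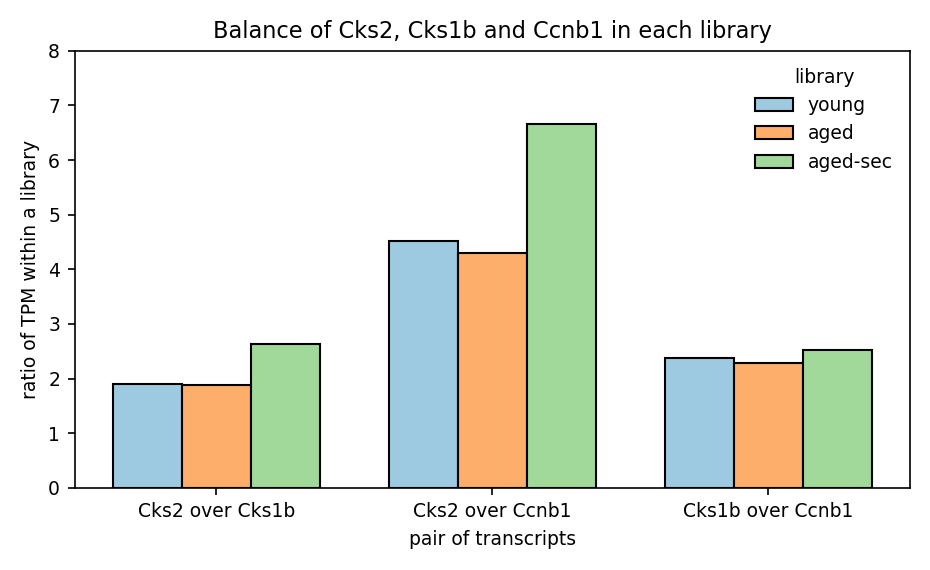
Bars give the ratio of TPM between a pair of transcripts within each library (young, aged and aged-sec, 1 library each, no error bars). The aged-sec bar stands above the other bars for Cks2 over Cks1b (2.64) and Cks2 over Ccnb1 (6.65), while the 3 bars for Cks1b over Ccnb1 range from 2.29 to 2.52.

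Cdc27, the APC/C subunit on which the activators dock, was the member that differed most, and it was lowest in the aged-sec library. Its curated transcript (NM_001285989) stood at 25.3 (young), 37.3 (aged) and 8.58 TPM (aged-sec). The aged-sec value was 4.35-fold lower than aged and 2.95-fold lower than young, or −2.06 and −1.51 as log2 differences. The aged value was 1.48 times the young one, a log2 difference of 0.55. A size rule was used in place of a test: a log2 difference of 1 or more in size, computed with 0.5 TPM added, where at least 1 library of the pair reached 10 TPM. Among the 4 members with 10 TPM, Cdc27 alone met it in the aged-sec over aged comparison, as lower, where 2.95% of 2239 transcripts were lower and 0.223% higher. Cdc27 alone met it between aged-sec and young too, as lower, where 0.45% of 1999 transcripts were lower and 17.1% higher. Between aged and young 0 members met it, beside 18.2% of 2186 transcripts, all higher as the listing requires. Both comparisons of aged-sec share that library, so the calls are not independent of each other. Of the 1999 transcripts 253 stood below young in aged-sec, as Cdc27 did, and of the 2239 transcripts 630 stood above aged, as Cks2 did.

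Of the 1819 transcripts at 10 to 100 TPM in aged oocytes, 17 including Cdc27 had an aged-sec over aged ratio this low or lower, or 0.935%, and the median was 0.861. The predicted variant of Cdc27 (XM_006533051) stood at 0.77 (young), 2.08 (aged) and 1.01 TPM (aged-sec). Its aged-sec value was 2.06-fold below aged, but in aged-sec it stayed above its young value. Of the listed Cdc27 TPM the curated transcript made up 97.0% (young), 94.7% (aged) and 89.5% (aged-sec). Summed over both variants, Cdc27 stood at 26.1 (young), 39.4 (aged) and 9.59 TPM (aged-sec), with log2 differences of 0.59, −1.98 and −1.40 for aged over young, aged-sec over aged and aged-sec over young. RefSeq (GRCm38.p6) annotates 7 mRNAs of Cdc27, of which 2 are listed; the other 5 were not analysed here, so a lower level of the gene and a different division of reads among its variants cannot be told apart.

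Ccnb1, Cks1b and Cks2 each have 1 annotated RefSeq mRNA, but copies elsewhere in the genome share sequence with them. Of the distinct 50-base stretches of the Ccnb1 transcript, 42.1% occur also in transcripts of other genes in GENCODE, all 6 of them pseudogenes. The share was 29.7% for Cks2, with 3 pseudogenes, and 7.75% for Cks1b, with 1 pseudogene and the coding gene Cks1brt. Cks1b and Cks2 shared 0 such stretches with each other, and Cdc27 shared 0 with any other gene. How the quantification divided reads of such copies is not given in the sources used here; the levels of Ccnb1 and Cks2 are less certain for that reason.

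Transcripts with the most similar pattern were sought among 241 curated ones with a mean of at least 100 TPM, by the distance in the log2 differences aged over young and aged-sec over aged, over 3 libraries. Nearest to Ccnb1 were Orc5 (distance 0.03), Rac1 (0.05) and Nxt1 (0.05). Nearest to Cks1b were Copb1 (0.01), Cenpx (0.03) and Selenok (0.04), and nearest to Cks2 were Ptp4a1 (0.02), Cox6b2 (0.04) and Thoc7 (0.06). For Cdc27, whose mean of 23.7 TPM is below that minimum, the search held no transcript of its own level, so the distance of 1.34 to the nearest, Stard3nl, says nothing of how unusual its pattern is.

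The other genes of the pathway were taken from 6 lists of 90 genes in all, of which 46 genes with 67 transcripts were listed. With the 4 genes left out, 31 of these transcripts reached 10 TPM between aged-sec and aged, of which 24 stood below aged (77.4%) and 7 above, beside 71.8% below aged over all 2239. By the size rule 2 of the 31 were lower (6.45%, beside 2.95% of all) and 0 higher. Under the median of ratios Cdc27 alone of the pathway transcripts stayed lower by this rule. Upper-quartile scaling left 2 lower, Cdc27 and an Arpp19 variant. Between aged and young 3 of 30 met it (10%, beside 18.2% of all), all higher as the listing requires, and 0 did under either scaling. Over the 35 with the 4 genes included, the median log2 difference was −0.14, against −0.18 over all 2239. Scaling by the median of ratios, which adds about 0.29 to differences of this pair, left 12 of the 35 below aged, and upper-quartile scaling 15. The share of all transcripts below aged under these scalings is not given here. These counts therefore cannot be read as particular to the pathway.

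On the kinase side the lists held 16 of 27 cyclin B-CDK1 genes. Cdk1 itself (NM_007659), the catalytic partner of cyclin B1, stood at 3.66 (young), 7.64 (aged) and 10.2 TPM (aged-sec), and met the size rule between aged-sec and young with a log2 difference of 1.36, beside 17.1% of all transcripts. That call was lost under the median of ratios (0.91) and under upper-quartile scaling (0.88). Cdk1 reached 10 TPM in the aged-sec library only, so its high value there is also what let it be called. As deposited, Cdk1 and Cks2 shared the order young, aged, aged-sec, which Ccnb1 and Cks1b did not have. Because every listed row is higher in aged than young, this order means only that aged-sec stood above aged. That held for 630 of all 2239 transcripts and 8 of the 35 of the pathway lists, so it does not link Cdk1 to Cks2. Arpp19, an inhibitor of the phosphatase PP2A-B55 that opposes CDK1, had a curated variant (NM_001357879) at 6.07, 15.2 and 6.0 TPM, which met the rule as higher in aged than young and as lower in aged-sec than aged. A more abundant Arpp19 variant (NM_001142655) stood at 46.6, 56.1 and 52.2 TPM in the same order, so the variants did not differ alike. The listed variants are 2 of 7 annotated for Arpp19, whose reads can be divided among them.

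Among APC/C subunits 8 of 14 genes were listed, with 12 transcripts, of which 3 reached 10 TPM. Anapc4, a scaffold subunit, stood at 32.1 (young), 48.7 (aged) and 40.9 TPM (aged-sec). Anapc7, a subunit of the same arm as Cdc27, stood at 14.2, 19.2 and 14.7 TPM. As deposited, both lay between young and aged in the aged-sec library, where Cdc27 lay below both. Of these 3 transcripts 1 met the size rule between aged-sec and aged, which was Cdc27, beside 2.95% of all called lower. Between aged and young 0 met it, beside 18.2% of all. Below 10 TPM, a curated Anapc1 transcript (7.33, 9.74 and 6.97 TPM) and a predicted Anapc15 transcript (2.54, 3.35 and 2.45 TPM) also stood below young in aged-sec. The remaining subunit transcripts below 10 TPM stood above young there.

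Among activators, ubiquitin-conjugating enzymes and inhibitors of the APC/C 8 of 17 genes were listed. Fbxo5, the inhibitor Emi1, stood at 92.0 (young), 137 (aged) and 140 TPM (aged-sec). Fbxo43, the inhibitor Emi2 that keeps the APC/C off in metaphase II, had a predicted variant (XM_006520197) at 9.97, 14.2 and 8.98 TPM. Bub3, a checkpoint protein, stood at 65.8, 86.1 and 52.7 TPM, and a predicted Usp37 variant (XM_006496057), a deubiquitinase, at 18.6, 31.2 and 21.2 TPM. A curated Usp37 variant stood at 12.6, 19.7 and 20.0 TPM and a further predicted one at 3.63, 4.87 and 8.06 TPM, so the Usp37 variants did not differ alike. Curated variants of the checkpoint kinase gene Ttk differed in opposite directions between aged and aged-sec: NM_001110265 stood at 9.97, 21.8 and 8.95 TPM and NM_009445 at 8.76, 18.9 and 32.4 TPM. The first met the rule as lower in aged-sec than aged, the second as higher in aged-sec than young, and both as higher in aged than young. Under the median of ratios the first lost its call against aged (−0.95), and the second met the rule against aged as well (1.04). A further predicted Ttk variant stood at 3.12, 5.55 and 5.7 TPM. The 3 listed variants are among 5 annotated for Ttk, and reads can be divided among them, so these calls are of variants and not of the gene.

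Substrates of the APC/C were listed for 6 of 16 genes, and 7 of 7 transcripts with 10 TPM stood below aged in the aged-sec library, beside 71.8% of all 2239 transcripts, with 0 under the size rule. Under the median of ratios 2 of the 7 were below aged, with no share over all transcripts given for that scaling. Pttg1, the separase inhibitor securin, had a predicted transcript (XM_006533516) at 1388 (young), 1943 (aged) and 1392 TPM (aged-sec), the lowest aged-sec over aged ratio (0.72) of the 40 transcripts with at least 1000 TPM. As deposited, this securin transcript and Ccnb1 thus both stood nearer to young than to aged in aged-sec. Under the median of ratios the Pttg1 transcript in aged-sec was nearer to aged (−0.19) than to young (−0.50). It is 1 of 2 listed among 5 annotated Pttg1 mRNAs, among which reads can be divided. The other, also predicted, stood at 17.2, 22.8 and 20.9 TPM, in aged-sec nearer to aged than to young as deposited. Anln, a cytokinesis scaffold, had a predicted transcript (XM_011242594) at 102, 123 and 111 TPM. In the SCF-Skp2 list, 4 of 8 genes were listed: Skp1a stood at 855, 1185 and 1189 TPM and the most abundant Cul1 transcript (XM_030255411) at 319, 536 and 496 TPM. Of the 6 transcripts of this list with 10 TPM, 0 met the rule, too few to set against the shares of all transcripts. In the list of genes that act in the arrest of the egg or in its release, 7 of 15 genes were listed, with 11 transcripts. Only 3 of these reached 10 TPM between aged-sec and aged, so the rule could call few. It called 0 in any pair, beside 2.95% of all 2239 called lower between aged-sec and aged. Among the listed genes a predicted Camk2g variant (XM_006518492), of a calcium-activated kinase, stood at 2.52, 3.11 and 1.43 TPM, too low for the rule.

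**Figure D4:**
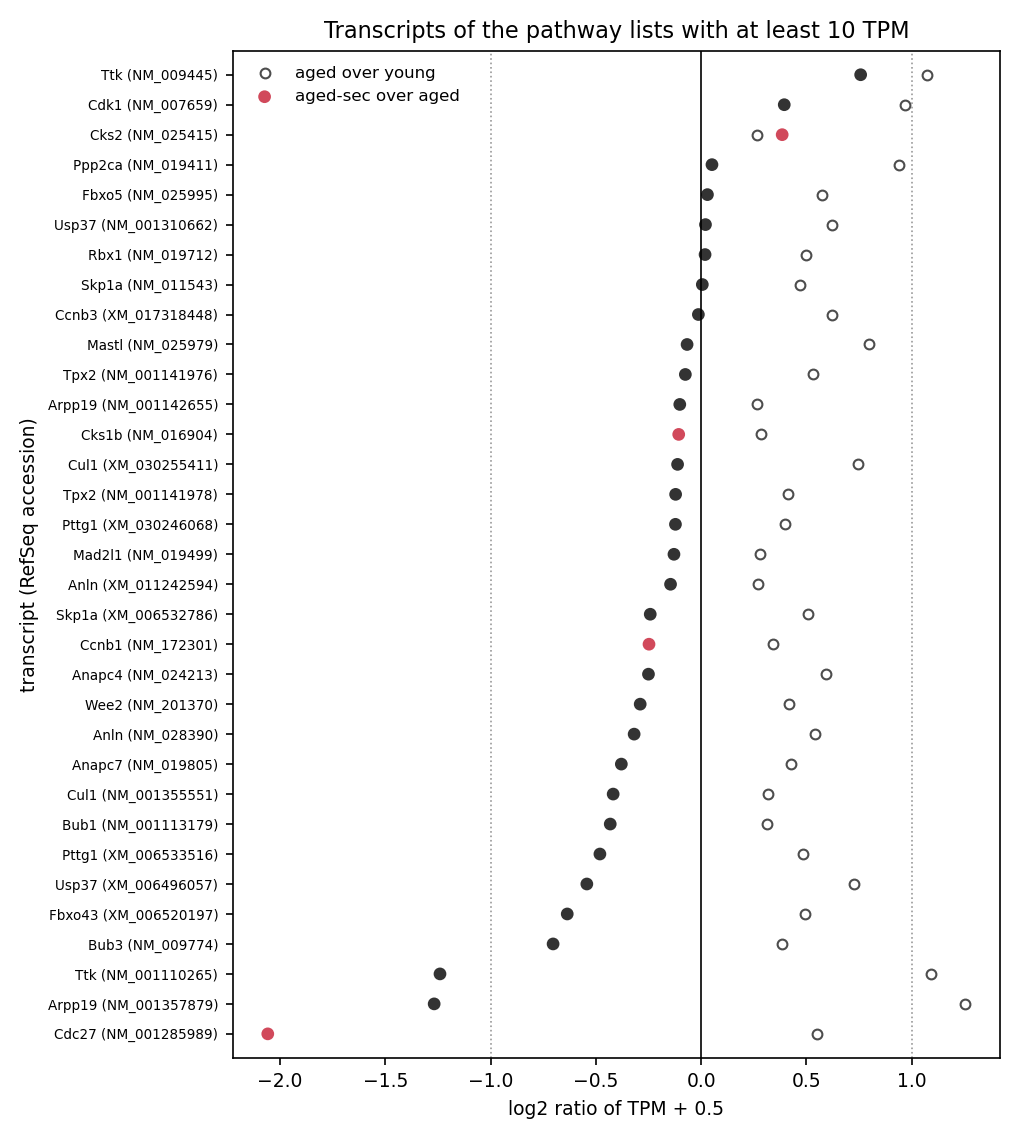
Of the 35 transcripts of the pathway lists with at least 10 TPM in 1 or more libraries, the 33 reported here are plotted, ordered by the log2 difference of TPM + 0.5 between aged-sec and aged (filled points, members in red); open points give aged over young, and dotted lines mark a 2-fold difference. Cdc27 lies lowest at −2.06, followed by an Arpp19 and a Ttk variant at −1.27 and −1.24, and Cks2 is among the few filled points to the right of 0, at 0.38.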

How the data were processed

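Per the file headers, the deposited table gives TPM per RefSeq transcript for each library, and the authors' ratio for 2 pairs, aged over young (A/Y) and aged-sec over aged (AS/A). As no listed A/Y ratio is below 1.2, the table is a selected part of each library. Which aligner, quantifier and genome build the authors used is not given in the sources used here. Columns were assigned to groups by title. Log2 differences were computed after adding a pseudocount of 0.5 TPM, which shrinks those of low transcripts, and ratios without one. The size rule was a log2 difference of at least 1 where 1 library of the pair reached 10 TPM. With 1 library per group, its rate of false calls was not tested. Members and lists were chosen with earlier results of these data known. All listed rows of the 4 genes are described; of each list, transcripts under the size rule and the 3 genes with the highest mean TPM are named, and 1 gene that this rule names is not reported here. Alternatives were other pseudocounts, scalings and TPM minimums, curated transcripts only, summed variants and removal of repeated accessions. Python 3.11.15, numpy 2.4.6 and pandas 2.3.3 were used.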

Additional observations from a re-analysis of the deposited data

How the results depend on the processing

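No paired analysis was possible because each group had 1 library. The curated Cdc27 transcript stayed lower in aged-sec than in aged and young, and under the size rule, under the other pseudocounts and scalings. Its log2 differences ranged from −2.11 to −1.77 and from −2.03 to −1.46. Both scalings lower every aged-sec over young difference, so they are no check on that from young. They raise every aged-sec over aged difference, so they could have made that from aged smaller in size. The other TPM minimums and curated transcripts only could not change these values. With variants summed the gene stood at −1.98 and −1.40. For Cks2 the scalings were the only settings that could move its value by much. Both add to every aged-sec over aged difference (0.29 and 0.25), so its difference from aged could only rise and was not checked. Both lower every aged-sec over young difference, and there Cks2 stayed higher (0.15 and 0.12). Scaling by the median of ratios moved log2 differences, before the pseudocount, by −0.79 (aged over young), 0.29 (aged-sec over aged) and −0.50 (aged-sec over young); by construction it takes out the excess of aged that the listing selects. Aged over young then became −0.45 for Ccnb1, −0.51 for Cks1b, −0.53 for Cks2 and −0.23 for Cdc27 (upper quartile: −0.44, −0.50, −0.52 and −0.22). Aged-sec over aged became 0.043 for Ccnb1 and 0.18 for Cks1b (upper quartile: 0.0027 and 0.14), and aged-sec over young −0.41 and −0.32 (upper quartile: −0.44 and −0.36).

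Counts of pathway transcripts under the size rule were 3 higher in aged than young, 3 lower and 0 higher in aged-sec than aged, and 2 higher in aged-sec than young. Under both scalings the first became 0 and the last 1; under the median of ratios the aged-sec over aged counts became 1 lower (Cdc27) and 1 higher (a Ttk variant), and with upper-quartile scaling 2 lower. With no minimum on TPM, or 1 TPM, the counts were 8 higher in aged than young, 6 lower in aged-sec than aged and 7 higher in aged-sec than young. Then 1 member (the predicted Cdc27 variant) met the rule between aged and young. With variants summed the counts were 1 between aged and young and 1 lower in aged-sec than aged. Shares over all transcripts are not given for these alternatives, so the counts are not read as results about the pathway. With curated transcripts only, NM_001285989 is 100% of listed Cdc27 in all 3 libraries by construction. Unknown depth and 1 library per group limit all values.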
